A study of Mus musculus with 6 samples.

Results

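Estradiol acts on cells through the nuclear receptors Esr1 and Esr2 and the membrane receptor Gper1, and these receptors are described here together with the progesterone receptor Pgr, the estrogen-responsive gene Greb1, the coregulators Nrip1 and Ncoa1, and the steroid enzymes Hsd17b4, Hsd17b12 and Cyp19a1. The genes were chosen by name, and they are 10 of the 22048 genes measured. RNA-Seq was performed on neurospheres, which are floating clusters of neural stem/progenitor cells (NSC/NPCs), grown from the fetal hypothalamus and harvested at first passage. The high estradiol (HE) group comprised 3 samples and the control (NC) group 3 samples. In both groups the dams were C57BL/6 mice aged 8 weeks. HE dams were given estradiol valerate, an ester that is converted to estradiol in the body, by gavage at 100 μg/kg per day between E5.5 and E11.5. NC dams were given corn oil over the same days by the treatment protocol, although the NC samples carry the label "untreated". Fetuses of both groups were taken at E14.5, which was 3 days after the last gavage, and only males were used. The cells then grew in Neurobasal-A with B27, EGF and bFGF, and each sample pooled the cells of 2 mice. The exposure was thus in the dam, and no group was measured while estradiol was being given. The p-values below measure the spread between these pooled samples. The number of dams or litters behind the samples is not given, so whether samples of a group shared a litter is unknown.

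The nuclear estrogen receptors are transcription factors that wait in the cell in complexes with heat shock proteins. When bound by estradiol they attach to estrogen response elements in DNA and recruit coactivators such as Ncoa1, which help transcription, or corepressors such as Nrip1, which limit it. Pgr and Greb1 are widely used as readouts of this activity, Cyp19a1 (aromatase) makes estrogens from androgens and gives the developing male brain its local estradiol, and 17-beta-hydroxysteroid dehydrogenases convert weak and strong estrogens into each other.

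The promoters of 3 members are printed because they belong to the only members whose groups did not overlap, Greb1 and Hsd17b12, and to Ncoa1, a gene of the same length class as Greb1 whose groups did overlap. Each run is the 250 bases before an annotated start of the gene in RefSeq (GRCm38.p6), written 5′ to 3′ on the strand of the gene. Capitals mark a single arm of the estrogen response element (GGTCA, here read on the other strand as TGACC) in Greb1 and the GC box (GGGCGG) in the other two.
Greb1, chr12:16800887-16801136, minus strand: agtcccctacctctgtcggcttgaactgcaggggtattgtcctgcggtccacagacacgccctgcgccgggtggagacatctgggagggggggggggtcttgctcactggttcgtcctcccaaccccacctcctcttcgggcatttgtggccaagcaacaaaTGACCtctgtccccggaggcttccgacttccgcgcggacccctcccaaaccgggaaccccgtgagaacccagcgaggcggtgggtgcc
Hsd17b12, chr2:94157910-94158159, minus strand: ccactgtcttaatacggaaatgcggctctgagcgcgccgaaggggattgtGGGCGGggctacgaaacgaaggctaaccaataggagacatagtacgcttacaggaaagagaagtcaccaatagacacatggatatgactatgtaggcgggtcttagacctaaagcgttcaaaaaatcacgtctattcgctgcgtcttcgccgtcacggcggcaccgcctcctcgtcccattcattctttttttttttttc
Ncoa1, chr12:4477183-4477432, minus strand: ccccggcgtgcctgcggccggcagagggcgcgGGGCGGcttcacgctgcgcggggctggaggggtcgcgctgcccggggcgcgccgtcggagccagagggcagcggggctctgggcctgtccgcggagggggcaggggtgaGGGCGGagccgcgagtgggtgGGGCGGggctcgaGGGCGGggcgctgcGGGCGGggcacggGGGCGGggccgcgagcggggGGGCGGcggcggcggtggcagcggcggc
The single arm in Greb1 began 88 bases before the start. Greb1 has another annotated start, whose window (chr12:16757190-16757489) is not printed and held 2 single arms, and the deposited values do not separate the starts. On the minus strand the annotated span of Greb1 begins at 16801394, so the printed run lies inside this span and not before it. The GC box in Hsd17b12 began 200 bases before its start, and Ncoa1 held 7 GC boxes. Both strands were searched. The whole element, GGTCANNNTGACC, which contains the single arm at either end, was found in 0 of the 14 windows of the 9 members with a window in RefSeq (250 bases before to 50 after the start), against 0.07% of all 32851 windows. The single arm was in 7 of the 14 windows, against 40.5% of all windows, and the GC box in 5, against 35.7%. These matches are descriptions of letters and were not tested for binding.

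The samples held 16078675 to 19137059 reads on genes, and a gene of 1 kilobase with 1 read had 0.0523 to 0.0622 RPKM, the unit of level used here, which divides reads by gene length and library size. HE3 stood apart from the other samples. When limma weighted the samples by their fit, HE3 received 0.158 and the others 0.852 to 2.87, so that values without HE3 are given below. Of the markers of NSC/NPCs, Sox2 was at 195 to 209 RPKM in NC and lower in every HE sample, at 176, 172 and 97.3 RPKM. Nes overlapped between the groups at 154 to 247 RPKM. Mki67 was at 15.9 to 23.2 RPKM in NC and higher in every HE sample, at 28.8 to 36.7 RPKM. In this list of 10, 1 gene lay above NC and 1 below. The 6 astrocyte markers summed to 1320 to 1670 RPKM in NC and 895 to 1350 RPKM in HE, with 1 above and 1 below. Among 10 neuron markers 4 lay above and 0 below, while their median log2 fold change of HE over NC was -0.104. Markers of the hypothalamus were low in the cultures, with Nkx2-1 between 1.03 and 3.34 RPKM and Otp at 1 read or fewer in every sample. The groups overlapped in Nkx2-1. Among the 6 tested of 10 listed, 3 lay above NC in every HE sample (Nkx2-2, Nkx2-4 and Foxb1) and 0 below. The median log2 fold change of these 6 was -0.0352. NC1 alone carried Pomc at 302 RPKM and the pituitary hormone Gh at 44.3 RPKM. The summed level of 10 microglia and macrophage markers was 1.28 to 2.25 RPKM in NC and 5.07 to 35.1 RPKM in HE. Lyz2 was the largest part of the HE sums, at 9.44, 2.98 and 25.4 RPKM, against 0.248 to 1.38 RPKM in NC. Cx3cr1, Csf1r, Aif1, Fcer1g and Ptprc overlapped between the groups. C1qa, C1qb, C1qc and Tyrobp also lay above NC in every HE sample, at 0.16 RPKM or less in NC. Only 4 of these 10 were tested, of which 2, Lyz2 and C1qb, were higher without overlap and 0 lower. C1qb reached the filter on low reads only in the HE samples, so its place above NC followed from the filter. The 8 endothelial markers summed to 2.79 to 3.81 RPKM in NC and 4.67 to 6.2 RPKM in HE. Of the 4 tested, 2 were higher without overlap and 0 lower. The 10 mesenchymal and perivascular markers summed to 64.9 to 163 RPKM in NC and 106 to 233 RPKM in HE, and 3 of the 9 tested lay above NC in every HE sample (Col3a1, Dcn and Mgp) and 0 below. The part of these markers in the differences below was not tested, and in cultures measured in bulk fewer cells of a type and less RNA per cell cannot be told apart.

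Detection was read first, with a sample counted as detecting a gene when it held more than 3 reads. The members split into 6 that were detected in every sample with at least 137 reads and 4 that held no more than 9 reads in any sample. The nuclear receptors Esr1, Esr2 and Pgr and the enzyme Cyp19a1 formed the low class, and Gper1, Greb1, Nrip1, Ncoa1, Hsd17b4 and Hsd17b12 the other. No member lay between the classes, as the plot of levels by sample shows. Only the 6 passed the filter on low reads, and each of them did so in all samples of both groups.

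**Figure D1:**
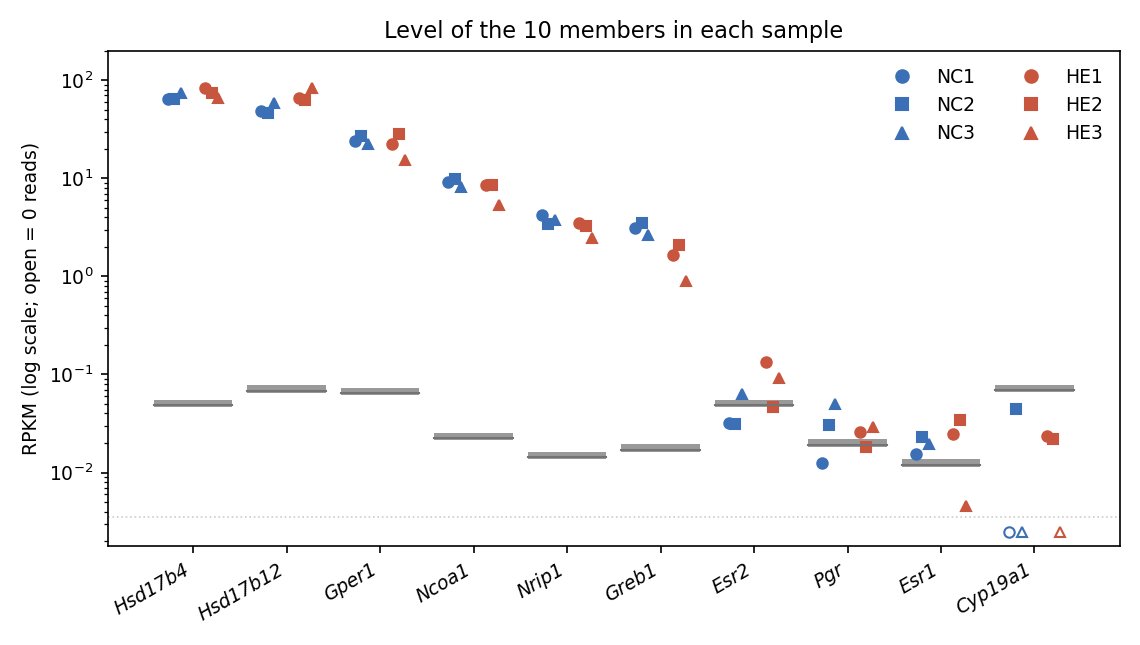
RPKM of each member in each sample on a log axis, ordered by mean level, with NC in blue and HE in red, and open symbols for 0 reads at an arbitrary height below the dotted line. Grey bars give the RPKM that 3 reads would have in the 6 samples. Hsd17b4 and Hsd17b12 lie highest, and Esr2, Pgr, Esr1 and Cyp19a1 lie near or under the grey bars.

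The nuclear estrogen receptors were at the edge of detection. Esr1, which encodes ERα, lies on chromosome 10 (4611989 to 5005633, plus strand, GRCm38.p6) and had 4, 6 and 5 reads in NC and 6, 9 and 1 in HE. The groups overlapped, HE3 alone was at the 3-read limit or below, and the sums were 15 reads in NC and 16 in HE. The highest level, in HE2, was 0.0345 RPKM, where 3 reads would be 0.0115 to 0.0137 RPKM. All 20 ways to assign the samples were enumerated in an exact permutation test, two-sided, which gave p = 0.9.

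Esr2, which encodes ERβ, lies on chromosome 12 (76120419 to 76177259, minus strand) and had 2, 2 and 4 reads in NC and 8, 3 and 5 in HE. NC1, NC2 and HE2 held 3 reads or fewer, and the lowest HE sample lay between the NC samples. The sums were 8 reads in NC and 16 in HE, and the exact permutation test of RPKM, two-sided, gave p = 0.2, where the smallest p possible with 3 samples against 3 is 0.1. Esr1 and Esr2 together had 6, 8 and 9 reads in NC and 14, 12 and 6 in HE, so that HE3 equalled the lowest NC sample. A difference in either nuclear receptor was not detectable at this depth.

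Pgr, the receptor that estrogen induces in many tissues, lies on chromosome 9 (8898900 to 8968611, plus strand) and had 2, 5 and 8 reads in NC and 4, 3 and 4 in HE. Its highest and lowest counts were both in NC, and the exact permutation test gave p = 0.7. Cyp19a1, also on chromosome 9 (54165937 to 54268164, minus strand), had 0, 2 and 0 reads in NC and 1, 1 and 0 in HE. No sample exceeded 3 reads of it, which would be 0.0661 to 0.0786 RPKM, and no fold is given for it. Among all genes, 22.0% had a lower mean RPKM than Esr1, 30.3% a lower one than Esr2, 24.4% than Pgr and 19.3% than Cyp19a1. In order of mean RPKM these members ran Esr2, Pgr, Esr1 and Cyp19a1, and the ranges of neighbours in this order overlapped.

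Gper1, a G protein-coupled receptor that mediates rapid responses to estradiol, was by contrast abundant. It lies on chromosome 5 (139423150 to 139427800, plus strand) and had 1136, 1325 and 1078 reads in NC and 1012, 1386 and 629 in HE, which is 23.9, 27.3 and 22.4 RPKM and 22.3, 28.6 and 15.4 RPKM. HE2 was the highest and HE3 the lowest of the 6 samples, and the groups overlapped. Mean levels were 24.5 ± 2.50 RPKM (NC) and 22.1 ± 6.61 RPKM (HE; SD over 3 samples), and 88.7% of genes had a lower mean level. Per length, Gper1 was at 142 to 506 times the summed RPKM of Esr1 and Esr2 in the 6 samples, a range that rests on the 6 to 14 reads of the nuclear receptors. The log2 fold change of HE over NC, on the scale of log2(RPKM + 0.1) used for every fold change here, was -0.19 (standard error 0.22, 95% confidence interval -0.71 to 0.33, adjusted p = 0.617 in limma). Without HE3 it was 0.05 and without HE2 -0.40, so that single samples set the sign and size of the Gper1 difference.

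Over all genes, 0 of the 13952 tested passed an adjusted p of 0.05 with a log2 fold change of at least 1 (0.0%; higher and lower genes counted together; smallest adjusted p 0.148 in limma with Benjamini-Hochberg adjustment), while 2858 had an unadjusted p under 0.05. No member was called. With limma's sample weights 268 genes were called and without NC3 103, and no member was among them. The HE and NC samples did not overlap in 2 of the 6 tested members, with Greb1 below NC, as were 17.9% of all tested genes, and Hsd17b12 above NC, as were 14.8%. The same members had an unadjusted p under 0.05, which 11.8% of tested genes had with lower and 8.68% with higher values in HE. The members' counts were thus near the background of these samples. The median log2 fold change of all tested genes was -0.059, and it was -0.00138 when samples were scaled by the median of ratios.

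**Figure D2:**
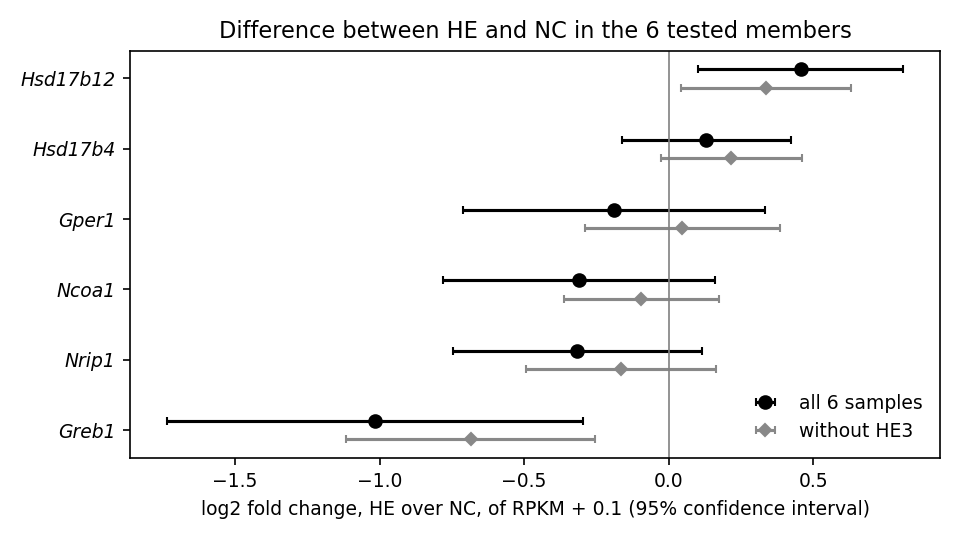
Log2 fold change of HE over NC for the 6 tested members in limma, with 95% confidence intervals, from all 6 samples (black circles) and without HE3 (grey diamonds). Greb1 lies lowest at -1.02 and Hsd17b12 highest at 0.46, and the other intervals cross 0.

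Greb1, an estrogen-induced gene that binds ERα as a cofactor in breast cells, had the lowest fold change of the members. It lies on chromosome 12 (16670615 to 16801394, minus strand) and had 561, 642 and 479 reads in NC and 286, 383 and 137 in HE, or 3.12, 3.50 and 2.64 RPKM and 1.67, 2.10 and 0.889 RPKM. All HE samples were below all NC samples, with HE2 nearest to NC and HE3 farthest. Mean levels were 3.09 ± 0.432 RPKM (NC) and 1.55 ± 0.612 RPKM (HE; SD over 3 samples), and the log2 fold change was -1.02 (standard error 0.31, 95% confidence interval -1.74 to -0.30), or a fold of 0.494. The unadjusted p was 0.0122 and the adjusted p 0.195 in limma, and the exact permutation test, two-sided, gave p = 0.1, the smallest possible. Of all tested genes, 3.5% had a fold change this low or lower. Without HE3 the log2 fold change was -0.68 (standard error 0.18, adjusted p = 0.156 in limma) and HE1 and HE2 still lay below every NC sample, as 20.1% of all tested genes did without HE3. With sample weights it was -0.64. Relative to the NC mean, Greb1 was at -0.84 in HE1, -0.53 in HE2 and -1.68 in HE3 on the log2 scale.

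Nrip1 (RIP140), a corepressor that nuclear receptors recruit when bound by hormone and itself an estrogen-responsive gene, lies on chromosome 16 (76287403 to 76373827, minus strand). It had 910, 756 and 812 reads in NC and 714, 714 and 449 in HE, or 4.23, 3.45 and 3.74 RPKM and 3.48, 3.27 and 2.44 RPKM. HE1 lay just above NC2, so the groups overlapped. The log2 fold change was -0.32 (standard error 0.18, 95% confidence interval -0.75 to 0.11, adjusted p = 0.333 in limma) and -0.17 without HE3.

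Ncoa1 (SRC-1), a p160 coactivator of steroid receptors, lies on chromosome 12 (4247362 to 4477206, minus strand). It was at 9.23, 9.86 and 8.25 RPKM in NC and at 8.46, 8.56 and 5.40 RPKM in HE, from 636 to 1382 reads. HE1 and HE2 lay within the NC range and HE3 below it. The log2 fold change was -0.31 (standard error 0.20, adjusted p = 0.373 in limma) and -0.09 without HE3. For both coregulators the interval of the difference included 0, and the difference was nearer to 0 without HE3.

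The steroid enzymes with reads were the most abundant members. Hsd17b4, a multifunctional peroxisomal enzyme of fatty acid beta-oxidation that also oxidizes estradiol to estrone, lies on chromosome 18 (50128201 to 50196270). It was at 65.0, 65.0 and 73.3 RPKM in NC and at 83.0, 74.6 and 65.6 RPKM in HE, from 3592 to 5056 reads. HE1 and HE2 lay above every NC sample and HE3 among them. The log2 fold change was 0.13 (standard error 0.12, 95% confidence interval -0.16 to 0.42, adjusted p = 0.535 in limma) and 0.22 without HE3, when the groups did not overlap, and 0.05 without HE1.

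Hsd17b12, which reduces 3-ketoacyl-CoA in the elongation of very long chain fatty acids and can also reduce estrone to estradiol, lies on chromosome 2 (94032697 to 94157909, minus strand). It had 2172, 2136 and 2689 reads in NC and 2814, 2902 and 3194 in HE, or 48.1, 46.4 and 59.0 RPKM and 65.3, 63.2 and 82.5 RPKM. Every HE sample lay above every NC sample, NC3 was the nearest NC sample, and HE3 was the highest. Mean levels were 51.1 ± 6.83 RPKM (NC) and 70.4 ± 10.6 RPKM (HE; SD over 3 samples), and the log2 fold change was 0.46 (standard error 0.15, 95% confidence interval 0.10 to 0.81, adjusted p = 0.198 in limma), or a fold of 1.37. The exact permutation test, two-sided, gave p = 0.1, the smallest possible, and 7.72% of tested genes had a fold change this high or higher. Without HE3 the log2 fold change was 0.34 (standard error 0.12, adjusted p = 0.219 in limma). In mean level 96.6% of genes lay below Hsd17b4 and 96.0% below Hsd17b12, and the ranges of these neighbours overlapped. Gper1, Ncoa1, Nrip1 and Greb1 followed in that order, and the ranges of Nrip1 and Greb1 overlapped while those of the others did not.

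Ratios between members inside a sample do not depend on how the samples were scaled to each other. A shift with gene length, given below, does not cancel in Greb1 over Gper1, as Greb1 is the longer gene. Greb1 over Gper1 was 0.131, 0.128 and 0.118 in NC and 0.0748, 0.0732 and 0.0577 in HE, so that all HE samples lay below NC with HE3 close to the other HE samples. Greb1 over Ncoa1 was 0.338, 0.355 and 0.32 in NC and 0.197, 0.245 and 0.165 in HE, again without overlap, and so was Greb1 over Nrip1, at 0.705 to 1.02 in NC and 0.365 to 0.642 in HE. Each of these 3 ratios had p = 0.1 in the exact permutation test, two-sided. They share the Greb1 values and are not independent of its fold change. Nrip1 over Ncoa1 overlapped between the groups, with means of 0.421 ± 0.0613 in NC and 0.415 ± 0.035 in HE (SD, n = 3 each; exact permutation p = 0.8). Hsd17b12 over Hsd17b4 was 0.713 to 0.804 in NC and 0.787, 0.847 and 1.26 in HE, where HE1 fell within the NC range (exact permutation p = 0.2). With 5 ratios computed, no adjustment can bring a p of 0.1 under 0.05.

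**Figure D3:**
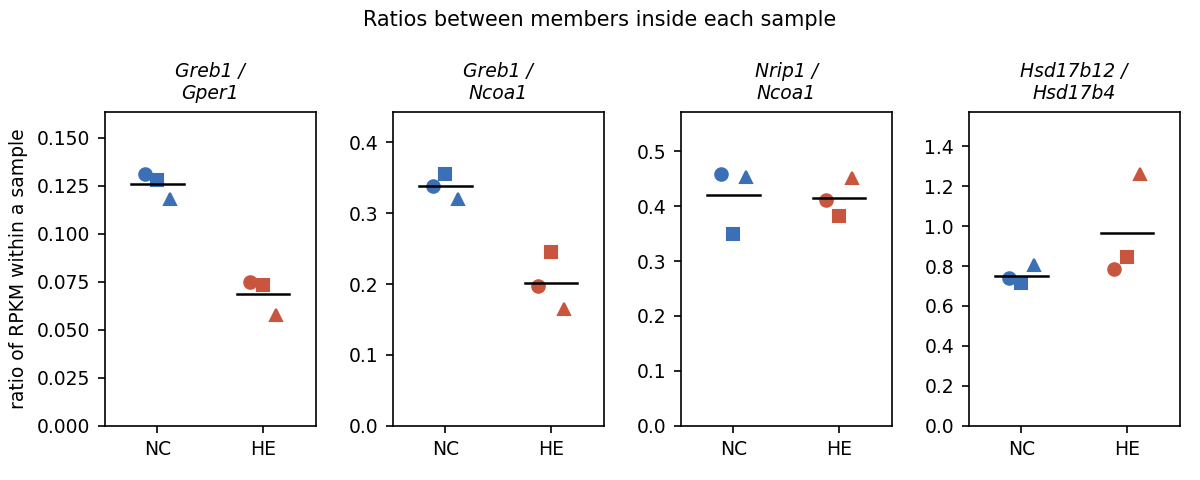
Ratio of the RPKM of 2 members within each sample, with the axis of each panel starting at 0, NC in blue, HE in red and the group mean as a line. Both Greb1 ratios are lower in all 3 HE samples, while Nrip1 over Ncoa1 and Hsd17b12 over Hsd17b4 overlap between the groups.

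The HE values, those of HE3 most, moved with gene length. The median log2 fold change was 0.0618 in the 2183 tested genes with a length under 2 kb and -0.134 in the 2846 of 7 kb and over, and it was 0.0702 and -0.04 without HE3. In HE3 the median deviation from the NC mean was 0.0525 in the shortest class and -0.308 in the longest, and in HE1 it was 0.106 and -0.045, a slope in the same direction. Greb1 (9580 bases), Nrip1 (11457 bases) and Ncoa1 (7328 bases) belonged to the longest class, in which 23.6% of genes lay below NC in every HE sample. Gper1, Hsd17b4 and Hsd17b12 were between 2 and 4 kb. In HE3 Nrip1 was at -0.62, Ncoa1 at -0.74 and Gper1 at -0.66, below the medians of their classes, and Hsd17b12 was at 0.70. With each of 20 length bins centred in each sample, the log2 fold change was -0.89 for Greb1, -0.19 for Nrip1 and -0.11 for Ncoa1 and Gper1. It was 0.21 for Hsd17b4 and 0.54 for Hsd17b12, with adjusted p-values of 0.18 for Greb1 and 0.191 for Hsd17b12 in limma. This centring moved the median over all tested genes from -0.059 to 0.0588.

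**Figure D4:**
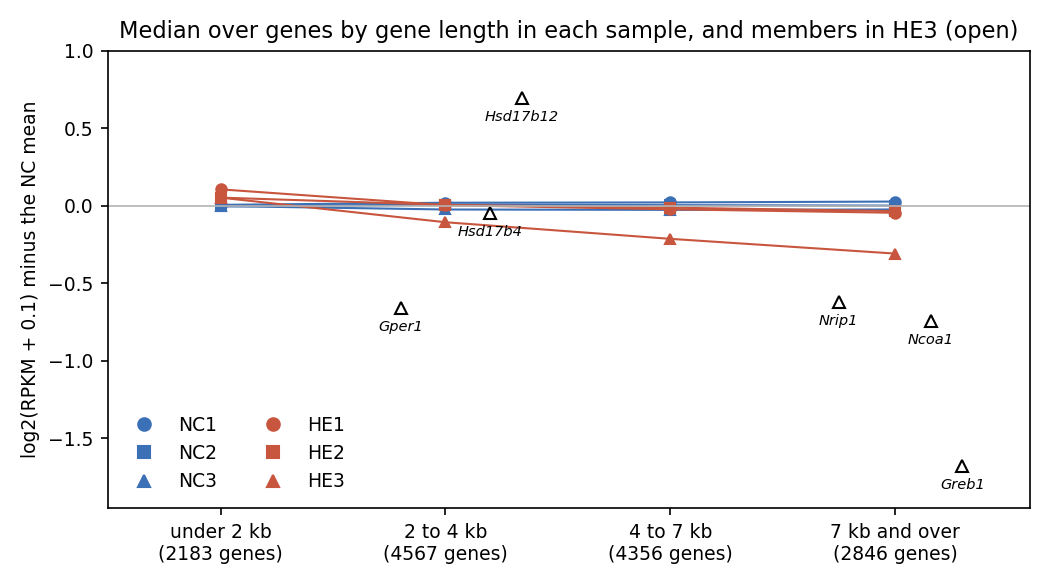
Median over genes of log2(RPKM + 0.1) minus the NC mean, in 4 classes of gene length, as 1 line per sample, with open triangles for the 6 tested members in HE3. The HE3 line goes from 0.0525 in the shortest to -0.308 in the longest class while HE1 goes from 0.106 to -0.045, HE2 from 0.0527 to -0.0341 and the NC samples stay within 0.0274 of 0, and Greb1 lies far below the line.

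Other genes of the pathway were described in 7 lists, in which no gene was called by limma. The receptor chaperones, which hold steroid receptors ready for hormone, had 11 of 12 tested genes higher and 1 lower in HE. Over all 13952 tested genes 6109 were higher and 7843 lower. The median log2 fold change of the chaperones was 0.25, against -0.059 over all genes. In 6 of the 12 genes every HE sample lay above every NC sample, where 14.8% of all genes did, and without HE3 the median was 0.17 (-0.000177 over all genes) and 7 of 12 lay above, where 20.6% of all genes did. The median was 0.16 without NC2. Hspa8, the constitutive HSC70, was at 495, 424 and 531 RPKM in NC and 645, 609 and 954 RPKM in HE. Hsp90aa1, the inducible HSP90, was at 97.5, 100 and 105 RPKM in NC and 120, 115 and 133 RPKM in HE. Both lay above NC in each HE sample, with log2 fold changes of 0.58 (adjusted p = 0.214) and 0.28 (adjusted p = 0.225) in limma, and so did Dnaja1, a cochaperone of HSC70, at 0.31 (adjusted p = 0.221). Hsp90ab1, the constitutive HSP90, overlapped at 379 to 519 RPKM over the 6 samples.

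Coactivators had 5 of 24 tested genes higher and 19 lower in HE and a median of -0.21, where 7843 of all 13952 tested genes were lower. In 6 of them (25.0%) every HE sample lay below NC, against 17.9% of all genes. The list mixes genes shorter and longer than 7 kb, so the 23.6% of the longest class is not its background. Without HE3 the median was -0.11 (-0.000177 over all genes) and with length bins centred -0.04 (0.0588 over all genes). The paralogous histone acetyltransferases Crebbp and Ep300, with lengths of 13540 and 14273 bases in the table, had log2 fold changes of -0.56 (adjusted p = 0.221) and -0.64 (adjusted p = 0.22) in limma, and -0.36 and -0.38 without HE3. Sra1, a steroid receptor RNA activator, was at -0.32 (adjusted p = 0.243). The RNA helicases Ddx5 and Ddx17, the most abundant coactivators, overlapped between the groups at 77.0 to 100 RPKM and 47.8 to 79.2 RPKM.

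Of the 16 tested corepressors among 18 listed, 8 were higher and 8 lower, with a median of -0.0048 that took either sign when single samples were left out (-0.034 to 0.037). Hdac2, a histone deacetylase of repressor complexes, was at 15.3, 14.9 and 16.2 RPKM in NC and 19.6, 19.7 and 19.8 RPKM in HE. Its HE samples lay close together and above NC, with a log2 fold change of 0.35 (unadjusted p = 0.00808, adjusted p = 0.195 in limma) and 0.34 without HE3. Safb2 and Safb, related and neighbouring scaffold attachment factors that repress ERα and between which reads could be shared, were below NC in every HE sample, with log2 fold changes of -1.06 (adjusted p = 0.199) and -0.65 (adjusted p = 0.221) in limma and -0.62 and -0.36 without HE3. Safb2 was at 17.8 to 18.6 RPKM in NC and at 10.8, 13 and 4.62 RPKM in HE, with HE3 far below the others. The abundant corepressors Phb2 and Ctbp1 overlapped, at 40.1 to 60.6 RPKM and 56.2 to 72.2 RPKM.

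Nuclear receptors of other ligands were detected more broadly than the nuclear estrogen receptors Esr1 and Esr2. All 13 listed were tested, 6 were higher and 7 lower, and the median was -0.12 (0.021 without HE3). Thrb, a thyroid hormone receptor, was at 0.234 to 0.333 RPKM in NC and 0.448 to 0.613 RPKM in HE, from 29 to 72 reads, a log2 fold change of 0.66 (adjusted p = 0.202 in limma), which was 0.23 with a pseudocount of 1 RPKM. Rxrb, a partner of many nuclear receptors, was lower without overlap at -0.43 (adjusted p = 0.209). Thra was at 50.4 to 54.6 RPKM in all samples but HE3, where it was 22.9 RPKM, and the estrogen-related orphan receptor Esrra was at 25.5 to 27.6 RPKM in all but HE3, where it was 37.2 RPKM.

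Genes of steroid synthesis and conversion were often at few or no reads. Of the 32 measured genes, 16 were tested and 10 had 3 reads or fewer in every sample. Of the tested genes 6 were higher and 10 lower, with a median of -0.076 (0.042 without NC2). Por, the reductase that passes electrons to microsomal P450 enzymes such as aromatase, was at 91.5, 88.4 and 93.3 RPKM in NC and 52.4, 48.0 and 34.7 RPKM in HE. The groups were far apart compared with the NC spread, and the log2 fold change was -1.04 (standard error 0.16, unadjusted p = 0.000338, adjusted p = 0.195 in limma) and -0.86 without HE3. Tspo, an outer mitochondrial membrane protein linked to cholesterol import, was at 50.3, 65.1 and 24.9 RPKM in NC and 17.3, 16.2 and 21.6 RPKM in HE, a log2 fold change of -1.25 (adjusted p = 0.195 in limma). Its NC values were spread widely, with NC3 close to HE3. Hsd17b10, a mitochondrial relative of the member enzymes, overlapped at 53.0 to 67.2 RPKM.

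Estrogen transport and inactivation had 7 tested genes among 13 in the table, 3 higher and 4 lower, with a median of -0.025 (-0.082 without NC2 and 0.038 without NC3). Abcg2, an efflux pump that exports estrogen sulfates, was at 0.732, 0.763 and 0.79 RPKM in NC and 1.47, 1.36 and 2.32 RPKM in HE. All HE samples lay above NC, with a log2 fold change of 1.04 (adjusted p = 0.195 in limma), 0.81 without HE3 and 0.61 with a pseudocount of 1 RPKM. Slco1c1, a carrier of thyroid hormone and steroid conjugates, was at 2.39, 0.917 and 1.37 RPKM in NC and 0.862, 0.192 and 0.048 RPKM in HE, the last from 4 reads. HE1 lay just below NC2, and the log2 fold change was -2.16 (adjusted p = 0.195 in limma). It was -1.55 without HE3, -2.90 without HE1 and -0.91 with a pseudocount of 1 RPKM, so its size is poorly fixed. Sult1a1, a sulfotransferase, had 11 to 21 reads per sample and a log2 fold change of 0.61 (adjusted p = 0.198 in limma), or 0.25 with a pseudocount of 1 RPKM, and the abundant Gusb, a glucuronidase that releases conjugated estrogens, overlapped between the groups.

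Among other estrogen-responsive genes, 15 of the 21 in the table were tested, 8 higher and 7 lower, with a median of 0.12. The median was 0.19 without HE3, but -0.092 without NC1, -0.083 without HE1 and -0.095 without HE2, so its direction depended on single samples. Tfrc, the transferrin receptor, was at 4.82, 5.90 and 5.29 RPKM in NC and 7.30, 8.25 and 6.89 RPKM in HE. It lay above NC in every HE sample, with a log2 fold change of 0.48 (adjusted p = 0.195 in limma). Ctsd, which encodes the lysosomal protease cathepsin D and is induced by estradiol in breast cells, was at 725 to 921 RPKM in NC and 597 to 724 RPKM in HE, so that HE1 lay just below the lowest NC sample (log2 fold change -0.31, adjusted p = 0.316 in limma). Vegfa was at 364 to 436 RPKM in all samples but HE3, where it was 33.6 RPKM.

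**Figure D5:**
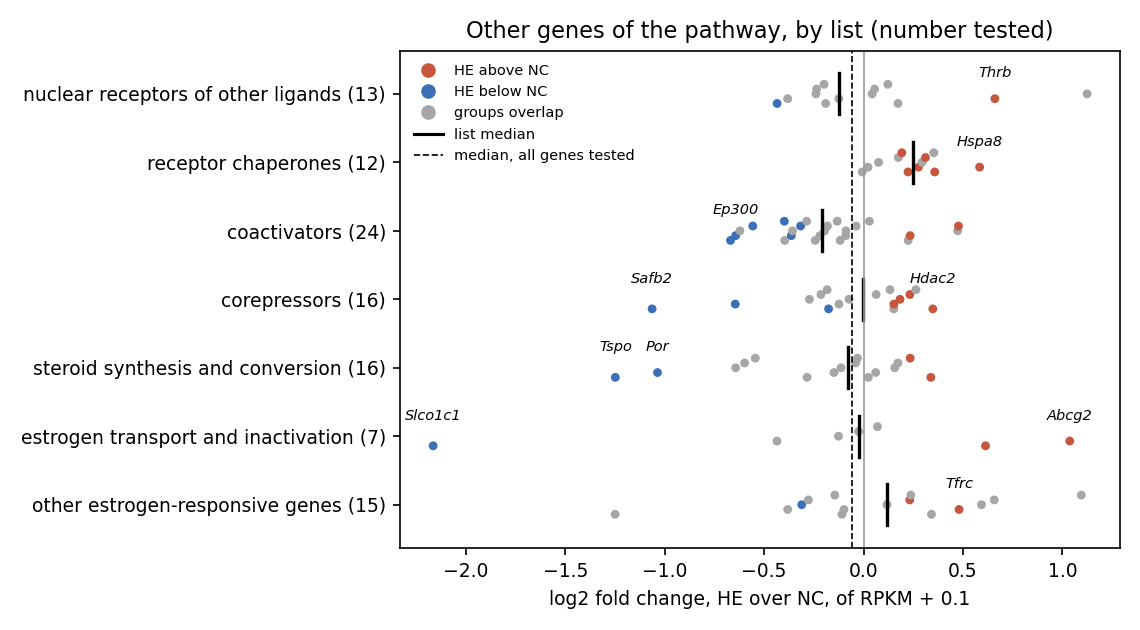
Log2 fold change of HE over NC for each tested gene of the 7 lists, coloured by whether every HE sample lay above (red) or below (blue) every NC sample, with the list median as a black bar and the median of all tested genes as a dashed line at -0.059. The chaperones lie mostly to the right of 0 and the coactivators mostly to the left.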

How the data were processed

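RNA-Seq libraries of 6 first-passage NSC/NPC samples (3 NC, 3 HE) were used. The submitters' processing notes name CASAVA 1.7, TopHat2 and mm10; the counting tool, the annotation and strand use in counting are not given in the sources used here, and the labels and the study's methods name different sequencers. The authors deposited read counts, with no normalization, and RPKM, which they computed from counts, gene length and the sample total (checked, largest difference 4.99e-07). Because large counts are written with commas, the count columns were recorded under another unit and no test that models counts directly was the main test; limma's voom on the counts, commas removed, was an alternative.

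Tested were the 13952 genes with 15 reads in all that reached a rate equal to 10 reads in the median library in 3 or more samples. The test was limma (3.58.1, R 4.3.3) on log2(RPKM + 0.1) with its trend option, group alone as a term and Benjamini-Hochberg adjustment over all tested genes. A call needed an adjusted p under 0.05 and a log2 fold change of 1 or more, up or down. The script was tested on simulated data. Single values used exact two-sided permutation tests over the 20 assignments. Floors of 3 reads cover counting error only. Fold changes of genes at low RPKM are understated by the pseudocount.

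The members and lists were chosen with earlier results of these data known. All members were named, and of each list the 2 genes with the highest mean RPKM and up to 3 with the largest fold change among those with an unadjusted p under 0.05 and no overlap; the result of 1 such gene is not reported here. Nkx2-1, Otp, Pomc, Gh, Sox2, Nes, Col3a1, Dcn and Mgp were picked from marker lists after their values were seen. The same holds for the named microglia and macrophage markers. Symbols were found for 21781 of 22048 identifiers, with coordinates and promoters from RefSeq GRCm38.p6 (9 of 10 members have a promoter window). Hsd17b8, Sts, Kiss1 and Xist, which were listed, were not analysed here. Alternatives were pseudocounts of 1 and 0.01, 2 other filters, median-of-ratios scaling, voom, sample weights, a replicate block, each sample left out, and, added after the data were seen, centring by gene length.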

Additional observations from a re-analysis of the deposited data

How the results depend on the processing

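No member was called under any of the 15 alternatives. The number of called genes was 0 except with sample weights (268) and without NC3 (103, the top of a range from 0 to 103 with 1 sample left out), and over the 7 lists 2 genes were called with sample weights and 0 to 1 with 1 sample left out. Greb1 was lower in HE in all 15 (-1.26 to -0.64, adjusted p 0.0681 to 0.502 in limma), and Hsd17b12 higher in all 15 (0.34 to 0.56, adjusted p 0.079 to 0.502). With 1 sample left out, 2 to 4 of the 6 members did not overlap (4 without NC3, 2 without NC1), where 37.8% to 46.1% of all tested genes did not overlap, against 32.7% with all samples, and 1 to 2 had an unadjusted p under 0.05 (1 without NC1 or NC2).

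Gper1 changed sign with sample weights (0.12) and ranged from -0.40 to 0.047 with 1 sample left out. With sample weights Esrra was at -0.017 and Hsp90ab1 at 0.025. With median-of-ratios scaling Hsp90ab1 was at 0.055, Ddx5 at 0.024 and Gusb at 0.036. With length bins centred Hsp90ab1 was at 0.043, Ddx5 at 0.065 and Gusb at 0.15. With 1 sample left out the range was -0.046 to 0.23 for Esrra, -0.59 to 0.021 for Thra, -0.096 to 0.13 for Hsp90ab1, -0.12 to 0.066 for Ddx5, -0.015 to 0.17 for Ctbp1 and -0.082 to 0.038 for Gusb. List medians moved with length bins centred for coactivators (-0.045), corepressors (0.15) and transport and inactivation (0.15). The median over all tested genes also moved with this centring, from -0.059 to 0.0588. For other estrogen-responsive genes the median moved with sample weights (0.24) and with 1 sample left out (-0.095 to 0.30, lowest without HE2). The cause was not tested. Adjusted p-values passed 0.05 with sample weights for Por (0.0133), Hdac2 (0.0409), Abcg2 (0.0333), Tfrc (0.0333), Slco1c1 (0.0432) and Tspo, and without NC3 for Tspo (0.0223, log2 fold change -1.65).

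Samples with the same replicate number correlated at 0.156, 0.0869 and 0.0603 in their deviations from the group means, and every sample correlated best with its own number. The design gives no pairing, and this pattern was not tested. With the replicate block 0 genes were called, and the adjusted p was 0.119 for Greb1 (-1.02) and 0.129 for Hsd17b12 (0.46). The depth left Esr1, Esr2, Pgr and Cyp19a1 at 9 reads or fewer, where differences could not be resolved.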
